A study of Mus musculus with 6 samples.

Results

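The 9 genes described here, Adipoq, Cfd, Lep, Plin1, Plin4, Cidec, Lpl, Fabp4 and Pparg, are genes for which white adipocytes are known, and they were taken by symbol from a table of 24421 gene rows. Adipoq, Cfd and Lep encode hormones and proteins that fat cells secrete, Plin1, Plin4 and Cidec encode proteins of the lipid droplet, Lpl and Fabp4 serve the supply and carriage of fatty acids, and Pparg encodes the nuclear receptor that drives adipocyte formation. RNA from colon tissue was sequenced in 3 samples with chronic colitis brought on by dextran sulfate sodium (DSS), a polymer toxic to the lining of the large bowel, and in 3 control samples. All were labelled C57BL/6 and 7 weeks of age, and the labels used here name no transgene and give no DSS dose. The wider study concerned H3K27ac, an acetyl mark of active chromatin, in gut inflammation, and expression alone was analysed here.

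Adipocytes store triglyceride in a single large droplet, take up fatty acids that lipoprotein lipase frees from circulating lipoproteins, and release adiponectin, leptin and adipsin. Around the colon, fat cells lie mainly in the attached mesentery, with few in the wall itself. Several of the 9 genes are not confined to fat cells: PPAR-gamma is abundant in colonic epithelium, FABP4 is also made by capillary endothelium and macrophages, and lipoprotein lipase by macrophages and muscle. A piece of colon gives 1 RNA pool, so fewer cells of a type and less RNA per cell cannot be told apart.

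Each sample was deposited as FPKM, that is, fragments divided by transcript length and by the mapped total, which allows levels of different genes to be compared within a sample. The depth is unknown. FPKM summed to between 609544 and 678076 per sample, and pairs of samples correlated (Pearson, log2 of FPKM + 1) at 0.936 to 0.961 in the DSS group and 0.971 to 0.986 in the control group. Gapdh, which every cell uses, was listed at 0, 21.4 and 36.1 FPKM in DSS 1, 2 and 3. In control 1, 2 and 3 it was at 2.00, 0.117 and 0.145 FPKM. A 0, or a low value above 0, may therefore be an estimate that failed. A gene at 0 in any sample of a group is therefore given sample by sample, with no mean for that group. Differences were tested with limma on log2(FPKM + 1) over the 12348 genes that reached 1 FPKM in at least 3 samples, and a gene is called higher or lower where its Benjamini-Hochberg adjusted p was under 0.05. The labels do not tie samples to animals, and a p-value here measures how these samples vary, which may be technical variation.

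In control colon Cfd stood at 24.2 to 33.1 FPKM, Adipoq at 5.18 to 6.30 FPKM and Lpl at 3.77 to 4.50 FPKM. Cidec stood there at 3.14 to 4.06 FPKM, Plin4 at 1.02 to 1.42 FPKM, Plin1 under 1 FPKM and Lep close to 0. Fabp4 and Pparg, which other cells of the gut wall also use, had the highest means there, and the range of Pparg overlapped that of Cfd. The 9 genes did not move as 1 group. Adipoq and Cfd fell, Cidec and Fabp4 rose, and Plin4, Lpl and Pparg did not pass the test. The call was lost for Cidec in 12 and for Fabp4 in 9 of 17 other settings. Lep and Plin1 were under the level needed for testing, and both stood lower in each DSS sample than in any control sample. Among all tested genes 2.56% were called lower and 6.34% higher, and 8.90% in either direction, beside 2 lower and 2 higher among the 7 tested adipocyte genes. The groups did not overlap for 4 of those 7, beside 35.1% of all tested genes. The 9 genes were chosen with earlier results of these data known, so neither comparison is an independent test. The median log2 fold change of all tested genes was 0.13, and the changes below are to be read against it. Calls over all genes were 783 higher and 316 lower, 545 higher and 467 lower after upper-quartile scaling, and 529 higher and 513 lower after median-of-ratios scaling.

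**Figure D1:**
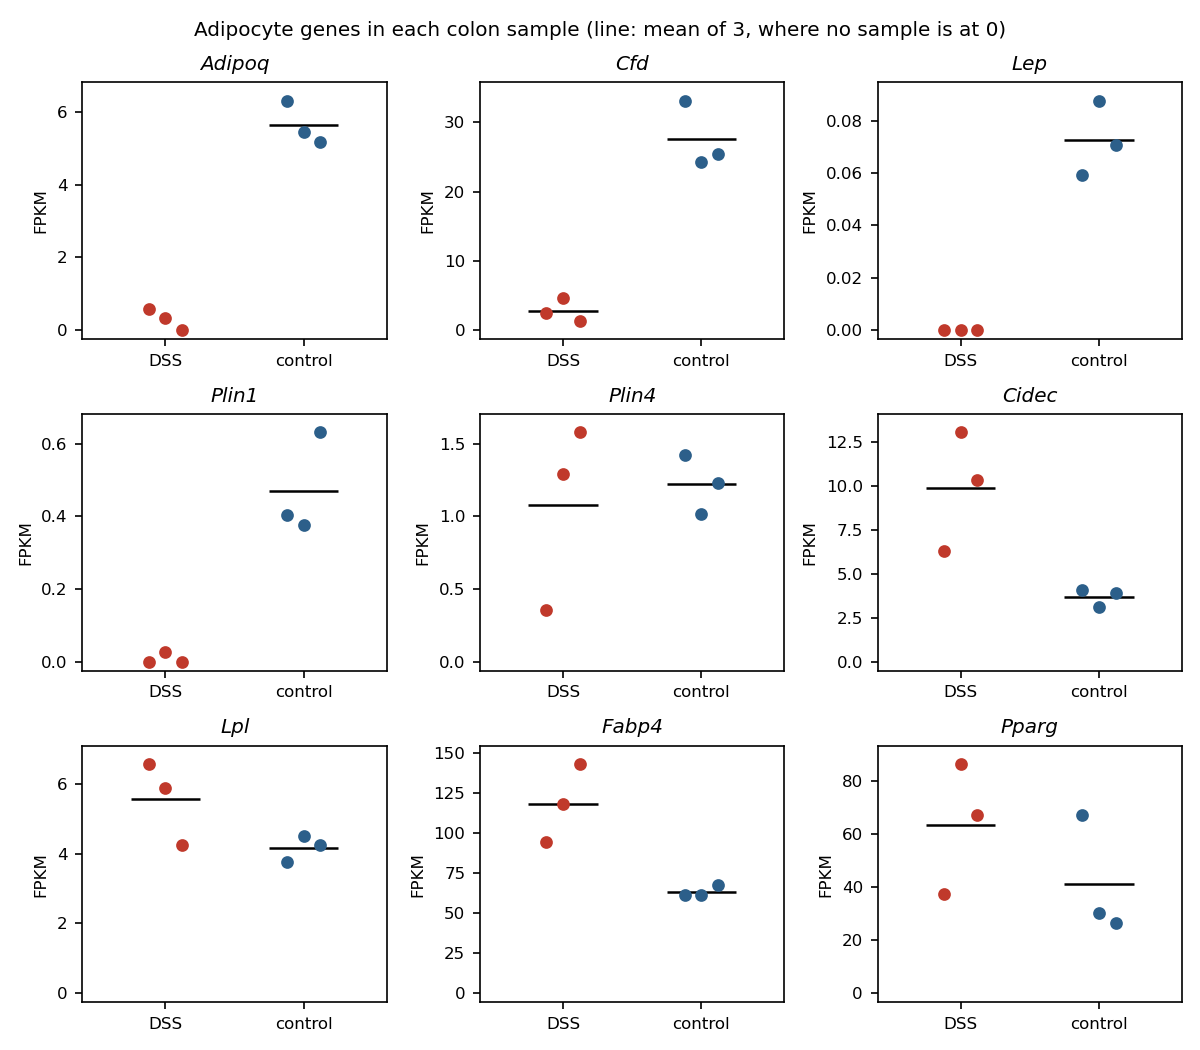
FPKM of each of the 9 genes (vertical axis, linear, 1 panel per gene) in the 3 DSS samples (left, red) and the 3 control samples (right, blue), with a line at the mean of a group in which no sample is at 0. Adipoq, Cfd, Lep and Plin1 lie lower in every DSS sample, Cidec and Fabp4 lie higher, and the groups overlap for Plin4, Lpl and Pparg.

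Adipoq encodes adiponectin, a hormone made almost only by fat cells. It stood at 0.568, 0.339 and 0 FPKM in DSS 1, 2 and 3, against 6.30, 5.43 and 5.18 FPKM in control 1, 2 and 3. The highest DSS sample was far below the lowest control sample (log2 fold change -2.37 ± 0.21 SE, limma adjusted p = 0.00120). The pseudocount shapes the size of this change, which was -3.00 with a pseudocount of 0.5 FPKM and -4.21 with 0.1 FPKM, and the gene was called in each case. Adipoq lies on chromosome 16, 23146536 to 23158028, on the plus strand of GRCm38.

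Cfd encodes adipsin, the complement factor D protease that fat cells secrete and that starts the alternative complement pathway. It stood at 2.50, 4.58 and 1.33 FPKM in DSS 1, 2 and 3, against 33.1, 24.2 and 25.4 FPKM in control 1, 2 and 3. Its mean was 2.80 ± 1.65 FPKM in DSS colon, against 27.6 ± 4.83 FPKM in control colon (SD, n = 3 each), a ratio of 0.102, and the groups were well apart (log2 fold change -2.99 ± 0.31 SE, limma adjusted p = 0.00233). The RNA of both Adipoq and Cfd was lowest in DSS 3. Cfd lies on chromosome 10, 79890853 to 79892655, on the plus strand.

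Lep encodes leptin, the satiety hormone released in proportion to fat stores. It was listed at 0 in all 3 DSS samples, against 0.0593, 0.0876 and 0.0709 FPKM in control 1, 2 and 3. These levels are close to the bottom of the scale in control colon too, so no fold is given. Lep lies on chromosome 6, 29060220 to 29073877, on the plus strand.

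Plin1 encodes perilipin 1, which coats the adipocyte droplet and restrains its lipases until hormones release them. It stood at 0, 0.0259 and 0 FPKM in DSS 1, 2 and 3, against 0.403, 0.376 and 0.631 FPKM in control 1, 2 and 3. When the filter on low values was dropped or set at 0.1 FPKM, Plin1 was called lower (limma adjusted p = 0.0217 and 0.0248, log2 difference -0.54 in both). The gene lies on chromosome 7, 79720218 to 79732903, on the minus strand.

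The start regions of the genes that stood lower in every DSS sample are shown, called or not, and those of Cidec because it was called higher. Each holds 250 bases before and 50 after a RefSeq start on GRCm38.p6, written 5′ to 3′ on the gene's own strand. Of the 9 genes 7 had an entry, with 10 starts in all. Capitals mark matches, on either strand, to the nuclear receptor half-site AGGTCA, a direct repeat of that half-site with any 1 base between (which contains the half-site), the C/EBP motif TTGCNNAA, the CCAAT box and TATAAA.
Adipoq, chr16:23146286-23146585, plus strand: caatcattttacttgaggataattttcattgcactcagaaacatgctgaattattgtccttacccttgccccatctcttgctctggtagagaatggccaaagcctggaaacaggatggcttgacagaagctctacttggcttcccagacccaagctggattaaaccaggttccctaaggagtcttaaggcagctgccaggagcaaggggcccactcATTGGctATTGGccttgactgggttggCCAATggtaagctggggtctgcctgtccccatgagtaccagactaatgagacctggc
Cfd, chr10:79890603-79890902, plus strand: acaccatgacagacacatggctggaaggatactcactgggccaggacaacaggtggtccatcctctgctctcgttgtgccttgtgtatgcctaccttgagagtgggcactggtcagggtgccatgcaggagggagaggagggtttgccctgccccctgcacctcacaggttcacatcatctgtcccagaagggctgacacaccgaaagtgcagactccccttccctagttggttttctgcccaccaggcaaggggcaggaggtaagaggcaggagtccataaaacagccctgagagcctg
Lep, chr6:29059971-29060270, plus strand: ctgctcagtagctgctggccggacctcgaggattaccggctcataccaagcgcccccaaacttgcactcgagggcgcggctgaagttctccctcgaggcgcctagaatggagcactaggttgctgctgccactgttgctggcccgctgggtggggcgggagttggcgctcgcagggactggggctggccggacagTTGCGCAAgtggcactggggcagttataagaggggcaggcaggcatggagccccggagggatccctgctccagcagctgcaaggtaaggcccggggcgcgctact
Plin1, chr7:79732727-79733026, minus strand: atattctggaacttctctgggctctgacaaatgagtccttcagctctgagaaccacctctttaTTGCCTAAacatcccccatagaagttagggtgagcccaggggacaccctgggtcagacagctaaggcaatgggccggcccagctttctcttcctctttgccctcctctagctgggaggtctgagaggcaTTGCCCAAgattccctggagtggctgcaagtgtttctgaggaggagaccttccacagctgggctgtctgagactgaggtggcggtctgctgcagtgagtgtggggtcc
Cidec, outer start, chr6:113435711-113436010, minus strand: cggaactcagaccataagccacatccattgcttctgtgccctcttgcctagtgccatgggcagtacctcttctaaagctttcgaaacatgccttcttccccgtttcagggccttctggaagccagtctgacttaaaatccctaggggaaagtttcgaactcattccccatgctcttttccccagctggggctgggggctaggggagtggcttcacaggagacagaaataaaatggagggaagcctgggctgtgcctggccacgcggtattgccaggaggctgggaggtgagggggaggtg
Cidec, inner start, chr6:113434715-113435014, minus strand: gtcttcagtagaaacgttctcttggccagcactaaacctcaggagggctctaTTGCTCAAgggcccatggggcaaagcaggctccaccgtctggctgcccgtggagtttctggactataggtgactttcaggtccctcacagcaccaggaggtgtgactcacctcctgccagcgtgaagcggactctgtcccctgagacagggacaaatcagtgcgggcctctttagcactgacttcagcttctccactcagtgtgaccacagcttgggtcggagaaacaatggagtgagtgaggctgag
Adipoq held 3 CCAAT boxes, and Cfd and the outer Cidec start held none of the motifs. Plin1 held 2 C/EBP matches, and Lep and the inner Cidec start held 1 each. The C/EBP motif occurred in 10.8% of all 32851 start regions, the CCAAT box in 37.4%, the half-site in 16.3%, TATAAA in 13.6% and the direct repeat in 0.0396%. These matches describe letters in the window and are not binding sites.

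Of the other droplet genes Cidec was called and Plin4 was not. Cidec encodes the protein through which small droplets fuse into a large one. It stood at 6.30, 13.1 and 10.3 FPKM in DSS 1, 2 and 3, against 4.06, 3.14 and 3.92 FPKM in control 1, 2 and 3. All DSS samples exceeded all control samples, with DSS 1 nearest to them. Cidec averaged 9.89 ± 3.40 FPKM in DSS colon, against 3.71 ± 0.497 FPKM in control colon (SD, n = 3 each), a ratio of 2.67 (log2 fold change 1.17 ± 0.26 SE, limma adjusted p = 0.0349). The call was lost without DSS 2, DSS 3 or any control sample, after either scaling and in 2 other settings (limma adjusted p up to 0.128), and without DSS 1 the log2 fold change was 1.43 (limma adjusted p = 0.00555). Cidec lies on chromosome 6, 113424634 to 113435760, on the minus strand.

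Plin4 encodes perilipin 4, a coat protein of nascent droplets. It stood at 0.357, 1.29 and 1.58 FPKM in DSS 1, 2 and 3, against 1.42, 1.02 and 1.23 FPKM in control 1, 2 and 3. The groups overlapped, and DSS 1 lay below every other sample (log2 fold change -0.15 ± 0.26 SE, limma adjusted p = 0.752). Without DSS 1 the log2 fold change was 0.13 (limma adjusted p = 0.669). Plin4 lies on chromosome 17, 56100591 to 56109803, on the minus strand, and shares 17 exonic bases with Hdgfl2 on the other strand, whose reads cannot be told apart without strand.

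Of the genes of fatty acid supply, Fabp4 rose. It encodes the cytosolic chaperone that carries fatty acids, a standard adipocyte marker. It stood at 94.1, 118 and 143 FPKM in DSS 1, 2 and 3, against 61.3, 61.2 and 67.5 FPKM in control 1, 2 and 3. Every DSS sample was above every control sample. Fabp4 averaged 118 ± 24.4 FPKM in DSS colon, against 63.4 ± 3.60 FPKM in control colon (SD, n = 3 each), a ratio of 1.87 (log2 fold change 0.87 ± 0.18 SE, limma adjusted p = 0.0269). The call was lost without DSS 2, DSS 3 or any control sample and after median-of-ratios scaling (limma adjusted p up to 0.110). Fabp4 lies on chromosome 3, 10204088 to 10208576, on the minus strand.

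Lpl encodes lipoprotein lipase, which is secreted and works on the capillary wall. It stood at 6.57, 5.89 and 4.25 FPKM in DSS 1, 2 and 3, against 3.77, 4.50 and 4.25 FPKM in control 1, 2 and 3. DSS 1 and DSS 2 were above the controls and DSS 3 lay among them (log2 fold change 0.33 ± 0.19 SE, limma adjusted p = 0.297). Lpl lies on chromosome 8, 68880491 to 68907448, on the plus strand.

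Pparg stood at 37.2, 86.3 and 67.1 FPKM in DSS 1, 2 and 3, against 67.1, 30.1 and 26.4 FPKM in control 1, 2 and 3. DSS 3 matched control 1 at the printed precision, and the groups overlapped widely. It averaged 63.5 ± 24.7 FPKM in DSS colon, against 41.2 ± 22.5 FPKM in control colon (SD, n = 3 each; log2 fold change 0.66 ± 0.42 SE, limma adjusted p = 0.354). Among control samples Pparg was the most variable of the 9 genes, with an SD of 54.6% of its mean, against 5.68% for Fabp4. Its annotated gene spans chromosome 6, 115360951 to 115490399, on the plus strand, with an antisense gene inside it that shares none of its exonic bases. The deposited value is 1 per gene, so the PPAR-gamma1 and the fat-cell PPAR-gamma2 transcripts were not separated. None of the 9 genes had a transcript of another gene that matched it over 200 bases at 95% identity.

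**Figure D2:**
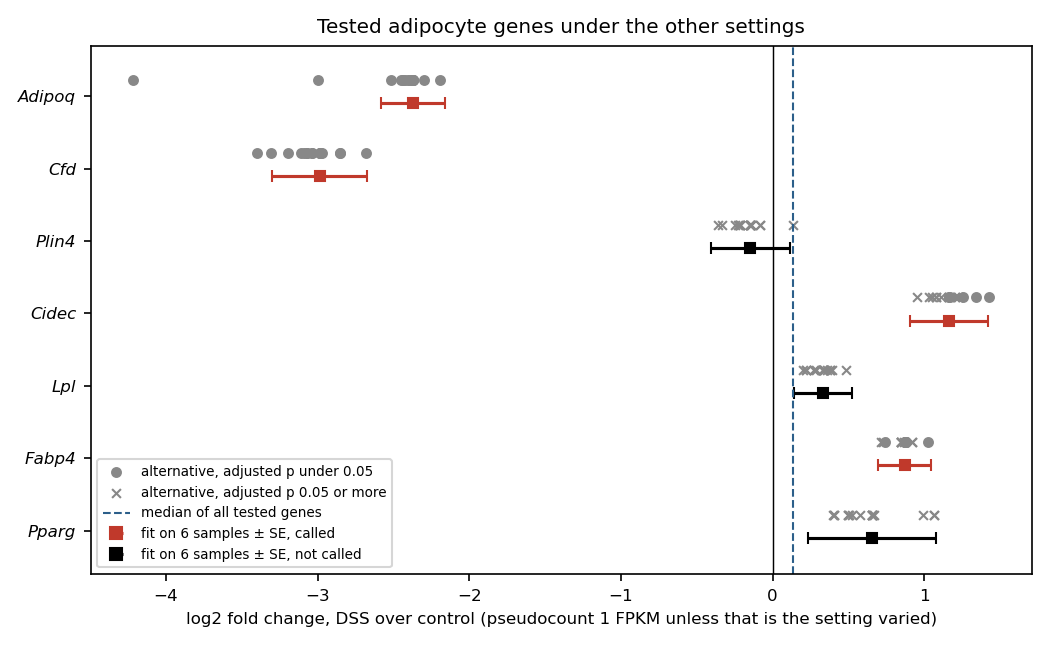
Log2 fold change of DSS over control colon (horizontal axis) for the 7 tested adipocyte genes, as squares with SE bars (red where called, black where not) and, above each, the values under the other settings as grey circles where called and grey crosses where not. Adipoq and Cfd stay called in every setting that tested them. Cidec and Fabp4 keep their sign, but Cidec is not called in 12 and Fabp4 in 9 of 17 other settings.

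The order of the levels differed between the groups. In DSS colon it was Fabp4, Pparg, Cidec, Lpl, Cfd, Plin4, Adipoq, Plin1 and Lep. Ranges over the 3 samples separated Fabp4 from Pparg and Pparg from Cidec, and every neighbouring pair below Cidec overlapped. In control colon the order was Fabp4, Pparg, Cfd, Adipoq, Lpl, Cidec, Plin4, Plin1 and Lep. There the ranges of Fabp4 and Pparg, of Pparg and Cfd and of Lpl and Cidec overlapped, and the other neighbours were apart. Cfd and Adipoq were the fifth and the seventh in DSS colon, and the third and the fourth in control colon.

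Ratios of FPKM between members within 1 sample do not depend on scaling between samples. Fabp4 over Cfd was 37.7, 25.7 and 107 in DSS 1, 2 and 3, against 1.85, 2.53 and 2.66 in control 1, 2 and 3. The supply gene thus stood far above the secreted one in each DSS sample and close to it in control colon. Cfd over Adipoq was 4.40 in DSS 1 and 13.5 in DSS 2, against 5.25, 4.46 and 4.90 in control 1, 2 and 3, and DSS 3 gave no ratio because Adipoq was at 0. Cidec over Plin4 was 17.6, 10.1 and 6.55 in DSS 1, 2 and 3, against 2.85, 3.08 and 3.19 in control 1, 2 and 3. Fabp4 over Lpl overlapped between the groups, at 14.3, 20.0 and 33.6 in DSS 1, 2 and 3 and 16.3, 13.6 and 15.9 in control 1, 2 and 3.

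Other genes of fat cells and of the same pathways were read from lists. Of 16 further adipocyte markers 15 were found by symbol and 6 were tested, of which Car3 and Retn fell, none rose, and the median log2 fold change was -0.56. Car3, a carbonic anhydrase abundant in fat and muscle, stood at 2.27, 3.89 and 1.54 FPKM in DSS 1, 2 and 3, against 18.9, 14.3 and 14.9 FPKM in control 1, 2 and 3 (log2 fold change -2.30 ± 0.26 SE, limma adjusted p = 0.00286). Retn, the mouse fat hormone resistin, stood at 0.840, 0.137 and 0 FPKM in DSS 1, 2 and 3, against 5.01, 2.95 and 4.20 FPKM in control 1, 2 and 3 (limma adjusted p = 0.00777). Both were below every control sample in each DSS sample, as Adipoq and Cfd were, and both stayed called in every setting that tested them. Cyp2e1, tested and not called, was also below every control sample in each DSS sample (log2 fold change -1.21, limma adjusted p = 0.0524). Of the 9 markers on the list that were too low to test, Adig, Mrap, Npr3 and Nrg4 were above every control sample in each DSS sample, Tshr was below, and 4 overlapped. The share of such low genes with groups apart was not computed, and among tested genes it was 35.1%. Adig, or adipogenin, stood between 0.423 and 1.33 FPKM in DSS colon, against 0, 0.138 and 0.339 FPKM in control 1, 2 and 3. Mrap, an accessory protein of the corticotropin receptor, stood at 0.764, 2.08 and 3.02 FPKM in DSS 1, 2 and 3, against 0.439, 0.129 and 0.592 FPKM in control 1, 2 and 3. Markers of fat cells thus lay on both sides of the controls, and those of this list that lay above were all untested. Lipe, the hormone-sensitive lipase that mobilises stored fat, stood at 2.67 ± 0.510 FPKM in DSS colon, against 2.25 ± 0.235 FPKM in control colon (SD, n = 3 each; limma adjusted p = 0.587), and it shares 918 exonic bases with an antisense gene. Ucp1 and Elovl3, which mark thermogenic fat, were listed at 0 in all 6 samples. Cox7a1, a respiratory chain subunit of muscle and brown fat, was the called gene among 3 tested of the thermogenic list and fell, with 69.0 ± 37.6 FPKM in DSS colon, against 208 ± 16.5 FPKM in control colon (limma adjusted p = 0.0315, and up to 0.121 in other settings, among them without DSS 3 or any control sample). Dio2, the deiodinase that activates thyroid hormone in brown fat and other tissues, reached 1 FPKM in fewer than 3 samples and was not tested. It stood at 6.48, 0.750 and 3.09 FPKM in DSS 1, 2 and 3, against 0.0546, 0.0235 and 0.0205 FPKM in control 1, 2 and 3, so every DSS sample was above every control sample.

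Among 9 tested adipokine and receptor genes Nampt rose, and Retn (also on the list of adipocyte markers) and Cdh13 fell, with a median log2 fold change of -0.30. Nampt, the NAD salvage enzyme also known as visfatin, had 37.4 ± 8.38 FPKM in DSS colon, against 20.7 ± 0.795 FPKM in control colon (limma adjusted p = 0.0410). Cdh13, the T-cadherin to which adiponectin binds, had 0.566 ± 0.386 FPKM in DSS colon, against 1.83 ± 0.216 FPKM in control colon (limma adjusted p = 0.0477). The call of Nampt was lost in 12 of 17 other settings, among them both scalings and the loss of DSS 2, DSS 3 or any control sample (limma adjusted p up to 0.144). That of Cdh13 was lost in 9 of 14, among them both smaller pseudocounts, the loss of DSS 2 or DSS 3, and the loss of any control sample with the minimum asked of 2 samples (limma adjusted p up to 0.162). The adiponectin receptor genes Adipor1 and Adipor2 were not called.

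Of 10 tested genes around lipoprotein lipase and fatty acid entry Angptl4 rose, Cd36 fell and 8 were not called, with a median of 0.28. Angptl4, a secreted inhibitor of lipoprotein lipase and a PPAR target, had 14.8 ± 3.22 FPKM in DSS colon, against 4.60 ± 0.932 FPKM in control colon (SD, n = 3 each; log2 fold change 1.49 ± 0.21 SE, limma adjusted p = 0.00829). Cd36, the membrane transporter of long-chain fatty acids, had 2.88 ± 0.817 FPKM in DSS colon, against 8.73 ± 1.31 FPKM in control tissue (log2 fold change -1.34 ± 0.21 SE, limma adjusted p = 0.0118), and its call was lost without control 1 or control 2 (limma adjusted p up to 0.0674). Cd36 thus fell where Fabp4, which carries fatty acids inside the cell, rose. None of 7 tested further droplet coat genes was called by limma (3 at an unadjusted p under 0.05), and Plin2, a perilipin of most cell types with a near-identical copy, had 101 ± 19.8 FPKM in DSS colon, against 144 ± 30.3 FPKM in control colon (limma adjusted p = 0.173).

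None of 6 tested lipolysis genes (1 at an unadjusted limma p under 0.05) and none of 13 tested adipogenic factors (1 at an unadjusted limma p under 0.05) was called. Cebpa, which acts with PPAR-gamma in fat cell formation and shares 51 exonic bases with another gene, had 19.4 ± 0.904 FPKM in DSS colon, against 20.1 ± 4.15 FPKM in control colon (SD, n = 3 each; limma adjusted p = 0.927). Of 14 tested genes of triglyceride synthesis Dgat2 and Scd1 rose and none fell, with a median of 0.22. Dgat2, which catalyses the last step, had 47.9 ± 7.23 FPKM in DSS colon, against 16.2 ± 2.34 FPKM in control tissue (log2 fold change 1.50 ± 0.17 SE, limma adjusted p = 0.00317). Scd1, a fatty acid desaturase with a near-identical copy, had 15.4 ± 3.82 FPKM in DSS colon, against 7.75 ± 0.651 FPKM in control colon (limma adjusted p = 0.0439, and up to 0.146 in other settings, among them without DSS 1, DSS 3 or any control sample).

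**Figure D3:**
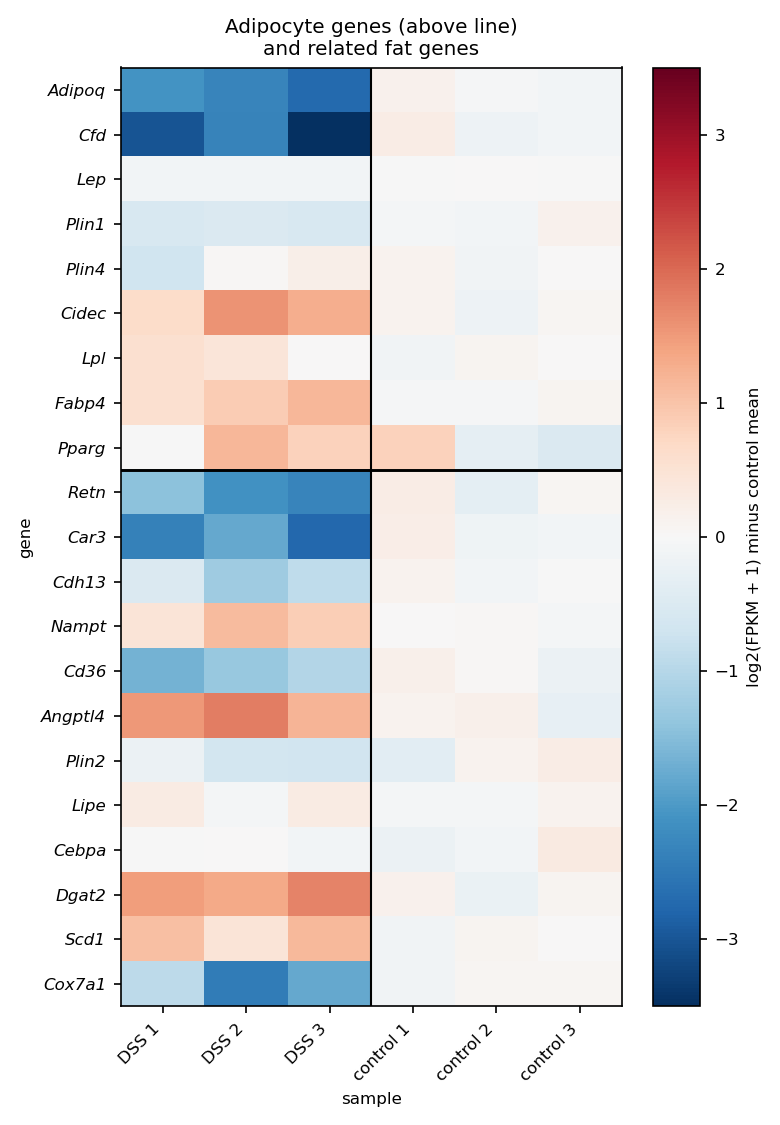
Log2(FPKM + 1) minus the control mean (colour, red higher and blue lower) for the 9 adipocyte genes above the line and related fat genes below it, in 3 DSS samples (left) and 3 control samples (right). Retn and Car3 share the blue of Adipoq and Cfd in all 3 DSS samples, and Angptl4 and Dgat2 are red with Cidec and Fabp4.

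The genes most like Adipoq and Fabp4 over the 6 samples were ranked by the root mean square difference of log2(FPKM + 1), each gene centred on its own mean, among 12347 other tested genes. For Adipoq these were Itih2 (0.213 log2 units), Smpx (0.232), Gsdmc3 (0.246), Car3 (0.246) and Gsn (0.253). Gsdmc3 has a near-identical copy, so its value is uncertain. The nearest, Itih2, stood at 0.535, 0.0977 and 0 FPKM in DSS 1, 2 and 3, against 3.69, 4.11 and 3.99 FPKM in control 1, 2 and 3. For Fabp4 they were Pnisr (0.0418 log2 units), 5430416N02Rik (0.0533), the water channel gene Aqp1 (0.0621), Arv1 (0.0634) and Mir7036b (0.0685), which lies in an exon of Add1. Aqp1 stood at 27.9, 35.2 and 45.7 FPKM in DSS 1, 2 and 3, against 17.7, 20.1 and 20.3 FPKM in control 1, 2 and 3. Its DSS samples came in the same order as those of Fabp4, which the ranking over these samples favours. No tested adipocyte member was among the 5 nearest of either. Lep and Plin1, being untested, were not ranked, and a gene with a larger or smaller change in the same direction also ranks lower.

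Markers of other cell types were read beside these results, and their calls are to be set against the 8.90% of all tested genes called in either direction. The 12 smooth muscle markers summed to 2160, 1503 and 4139 FPKM in DSS 1, 2 and 3, against 5360, 5500 and 4405 FPKM in control 1, 2 and 3. Of the 12 tested, Tpm2, a tropomyosin, fell and none rose (7 at an unadjusted limma p under 0.05), with a median log2 fold change of -0.99. DSS 3, nearest to the controls in this sum, had the lowest Adipoq, Cfd and Retn, with Adipoq and Retn listed at 0. A link between this sum and those levels was not tested. Tpm2 had 132 ± 53.2 FPKM in DSS colon, against 306 ± 24.9 FPKM in controls (SD, n = 3 each; limma adjusted p = 0.0306, and up to 0.116 in other settings, among them without DSS 2 or any control sample). The 6 mesothelial markers, of the outer lining that continues onto the mesentery, summed to between 3.59 and 9.29 FPKM in DSS colon, against 2.73 to 17.3 FPKM in controls, and none of the 3 tested was called by limma (0 at an unadjusted p under 0.05). No smooth muscle or mesothelial marker was at 0 in any sample.

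The 12 macrophage markers, none at 0 in any sample, summed to between 756 and 959 FPKM in DSS colon, against 542 to 654 FPKM in controls. Lyz2, the lysozyme gene of macrophages and other myeloid cells, made up the largest share of this sum, at 549, 402 and 409 FPKM in DSS 1, 2 and 3, against 358, 307 and 293 FPKM in control 1, 2 and 3. Of the 12 tested Cd14 and Itgam rose and none fell, with a median of 0.33. Csf1r, Cd68 and Cd163, further markers of the lineage, were not called, with log2 fold changes of -0.57, -0.33 and -0.30. Cd14, the coreceptor for bacterial lipopolysaccharide, had 99.6 ± 13.8 FPKM in DSS colon, against 43.1 ± 5.15 FPKM in controls (SD, n = 3 each; limma adjusted p = 0.00707). Itgam, the CD11b integrin chain, had 6.36 ± 2.32 FPKM in DSS colon, against 1.50 ± 0.304 FPKM in controls (limma adjusted p = 0.0135, and up to 0.0705 without control 2 or 3), and it shares 3450 exonic bases with another gene. Adgre1, the defining F4/80 antigen, was not called, with 6.45 ± 0.548 FPKM in DSS colon, against 4.65 ± 0.708 FPKM in controls (limma adjusted p = 0.168).

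The 12 endothelial markers, none at 0 in any sample, summed to between 48.6 and 89.4 FPKM in DSS colon, against 54.6 to 65.1 FPKM in controls. Of the 11 tested Egfl7, a secreted vessel protein gene that shares exonic bases with 4 others, rose and none fell, with a median of 0.22. Egfl7 had 21.8, 15.3 and 26.1 FPKM in DSS 1, 2 and 3, against 7.03, 9.15 and 11.2 FPKM in control 1, 2 and 3 (limma adjusted p = 0.0335, and up to 0.118 in other settings, among them without DSS 3 or any control sample). Pecam1, the defining CD31 antigen, had 11.5 ± 4.65 FPKM in DSS colon, against 12.7 ± 0.620 FPKM in controls (SD, n = 3 each; limma adjusted p = 0.672).

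The 10 markers of adipose progenitors and fibroblasts summed to between 1128 and 2104 FPKM in DSS colon, against 873 to 1526 FPKM in controls. Ly6a, not called, gave 1469, 681 and 1214 FPKM of this in DSS 1, 2 and 3, against 1044, 359 and 576 FPKM in control 1, 2 and 3. Of the 9 tested Dpp4 and Cd34 fell and none rose, with a median of 0.17. Dpp4, a peptidase listed here for early adipose progenitors, had 2.72 ± 0.655 FPKM in DSS colon, against 7.00 ± 0.528 FPKM in controls (SD, n = 3 each; limma adjusted p = 0.0144, and up to 0.0757 without DSS 3 or a control sample). The cells that its RNA came from were not determined. Cd34, a progenitor and vessel antigen, had 11.7 ± 3.08 FPKM in DSS colon, against 25.2 ± 2.49 FPKM in controls (limma adjusted p = 0.0256, and up to 0.110 in other settings, among them without DSS 3 or any control sample). Both share exonic bases with antisense genes.

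Colonocytes are the cells in which Pparg is known to be abundant in this tissue. The 12 colonocyte and PPAR target genes summed to between 1850 and 3230 FPKM in DSS colon, against 4380 to 6267 FPKM in controls. Of the 11 tested Aqp8, Car4 and Slc26a3 fell and Angptl4 rose, with a median of 0.10. Car4, a carbonic anhydrase of the surface epithelium, had 251 ± 131 FPKM in DSS colon, against 1663 ± 66.6 FPKM in controls (SD, n = 3 each; limma adjusted p = 0.00440). Aqp8, a water channel of the same cells, had 232 ± 42.0 FPKM in DSS colon, against 1502 ± 366 FPKM in controls (limma adjusted p = 0.000821). Slc26a3, the chloride-bicarbonate exchanger, had 180 ± 1.93 FPKM in DSS colon, against 715 ± 213 FPKM in controls (limma adjusted p = 0.00305). Pparg overlapped between the groups while these epithelial genes did not. The part of these cell types in the levels of the 9 genes was not tested.

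**Figure D4:**
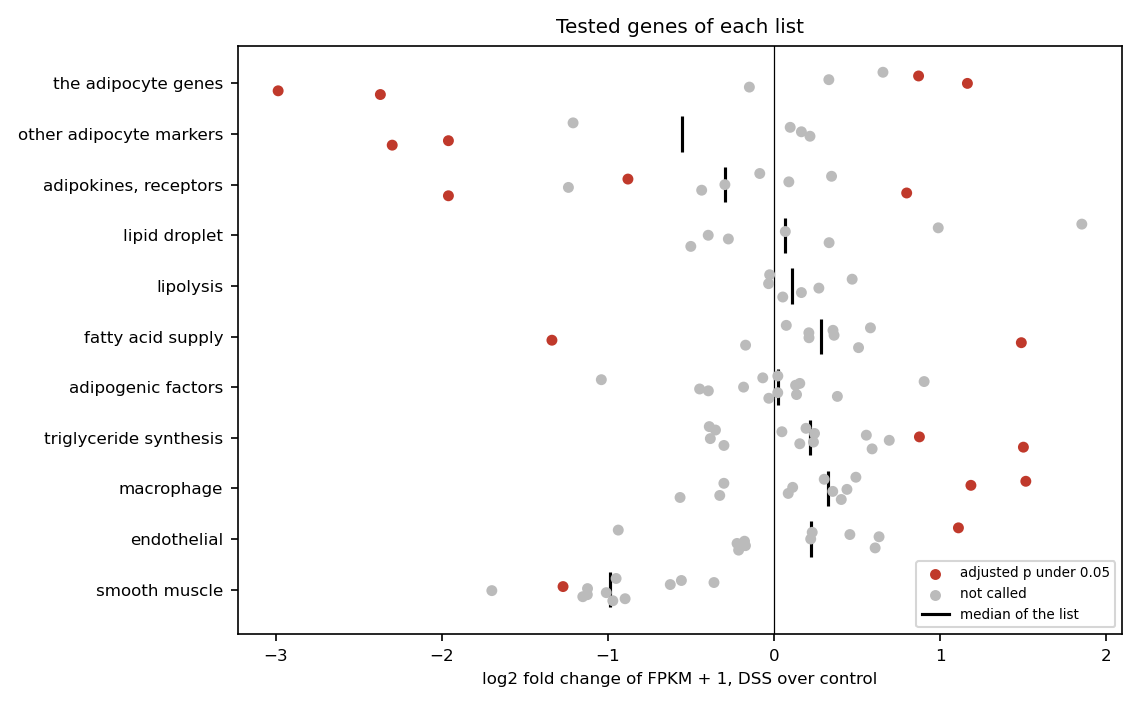
Log2 fold change of FPKM + 1, DSS over control (horizontal axis), for each tested gene of 11 lists (rows), red where called and grey where not, with a bar at the median of each list other than the first. The adipocyte genes in the top row span the widest range, from -2.99 for Cfd to 1.17 for Cidec.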

How the data were processed

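Colon RNA from 3 DSS and 3 control samples was analysed. Per the labels' protocols, RNA was extracted with TRIZOL, and poly(A) isolation and non-directional second-strand modules are named. The authors deposited 1 FPKM value per gene and sample, per the file headers. TopHat2 2.1.1 and mm10 are named in the submitters' processing notes, and the program behind the FPKM values is not given in the sources used here. No whole-read steps were seen in the ratios of low values, with at most 1.96% of genes sharing a 0.02-wide log2 interval, and the depth is unknown.

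Groups came from the sample titles. Log2(FPKM + 1) was modelled by group in limma 3.58.1 (R 4.3.3), with a mean-variance trend and robust moderation. Two-sided tests covered the 12348 genes that reached 1 FPKM in 3 or more samples. Benjamini-Hochberg adjustment was over these genes, with a threshold of 0.05. The fit was tested on simulated data, where 40.3% of 2-fold and 84% of 4-fold changes were recovered. A gene not called may therefore still differ. The design also named a count test, which FPKM do not allow. The members and gene lists were chosen with earlier results of these data known. Named genes were the 9 members, 9 defining genes, up to 4 called genes of each list by smallest p, and the 5 genes most like Adipoq and Fabp4. Adipor1, Adipor2, Ucp1, Elovl3, Adig, Mrap, Npr3, Nrg4, Tshr, Cyp2e1, Dio2, Lyz2, Csf1r, Cd68, Cd163 and Ly6a were named after their values were seen. Lists were matched by symbol. Gene positions were looked up in GENCODE vM21 (GRCm38, the same assembly as mm10), copies were sought with BLAST+ 2.17.0, and start regions are from RefSeq (GRCm38.p6). Figures used matplotlib 3.10.9 under Python 3.11.15. Alternatives covered pseudocount, filter, scaling, moderation, the replicate number as a block and each sample left out.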

Additional observations from a re-analysis of the deposited data

How the results depend on the processing

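Of the 9 genes, Adipoq and Cfd stayed called lower in every setting that tested them. Leaving out 1 sample gave 1 to 2 members called lower and 0 to 2 called higher. The count of 1 came from leaving out any control sample, because Adipoq then reached 1 FPKM in only 2 samples and was not tested. With the minimum asked of 2 samples, a choice made after seeing the data, 2 were called lower and 0 higher without each control sample. With no filter, or one at 0.1 FPKM, Plin1 brought the members called lower to 3. Members called higher numbered 1 with no filter, 1 with upper-quartile scaling and 1 with the replicate block. In these settings Cidec lost its call (limma adjusted p = 0.0645, 0.0598 and 0.0604). With median-of-ratios scaling the number was 0, as Cidec and Fabp4 both lost theirs (limma adjusted p = 0.0654 and 0.0514). Why the calls were lost was not tested. Over all genes, leaving out 1 sample gave 58 to 584 called lower and 191 to 972 called higher, and, with the minimum asked of 2 samples, 136, 77 and 83 lower and 308, 194 and 199 higher without control 1, 2 and 3. Median-of-ratios scaling gave 513 lower; it moved all log2 fold changes by a median of -0.14, and upper-quartile scaling by -0.12. The sign turned for Plin4 without DSS 1 (0.13, and -0.33 at the other end, without DSS 3), for Pecam1 without DSS 2 (0.13, and -0.45 without DSS 1) and for Cebpa without DSS 3 (0.0062) or control 3 (0.12), none called. Across named genes 489 of the other values kept side and sign, 151 lost the call and 5 turned. Replicate numbers are not stated to pair samples, and deviations of same-numbered samples correlated at 0.0818, 0.129 and 0.00308; with the block 640 genes were called higher and 255 lower, and Cidec was not called (limma adjusted p = 0.0604). Unknown depth limits what the values near 0 can show.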
